A study of Mus musculus with 6 samples.

Results

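The Ifi200 family cluster is a group of neighbouring interferon-inducible genes on mouse chromosome 1. The members described here were Aim2, Ifi213, Ifi209, Ifi208, Ifi207, Ifi204, Mndal, Ifi211, Ifi203 and Ifi205, all protein coding. They lay in that order within 681 kb (GRCm38, chr1:173350879-174031810). Accessibility was measured by ATAC-seq, in which the Tn5 transposase inserts adapters into open chromatin, in primary smooth muscle cells from the oviducts of mice aged 8 to 12 weeks on day 2 of pregnancy. WT mice gave 3 libraries and Pbrm1 cKO mice gave 3, and the data were 1 peak list from each library and 1 list of reproducible peaks from each genotype. Pbrm1 encodes a subunit of the PBAF form of SWI/SNF, which moves nucleosomes. In the study's mice, Pbrm1 fl/fl females that also carried PR-IRES-cre were the mutants and Pbrm1 fl/fl littermates the controls, so the floxed allele was common to both genotypes. The Cre is driven by the progesterone receptor gene, and the labels of these oviduct libraries did not name it. The peak lists do not measure the deletion itself, which was not checked here.

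A region was counted as a member when it overlapped the body of one of these genes or the 10 kb on either side. By this rule 16 of the 66679 regions in the merged lists of both genotypes were members. The cluster had been selected on its WT against Pbrm1 cKO values in these same libraries, so the genotype differences at its regions are a description and carry no test. The members' proteins combine a pyrin domain with a DNA-binding HIN domain in various arrangements. AIM2, the best known, senses double-stranded DNA in the cytosol and assembles an inflammasome, and several others act in the nucleus as regulators of transcription and of the interferon response. The family grew by gene duplication in rodents, so that parts of the cluster are close copies of each other.

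**Figure D1:**
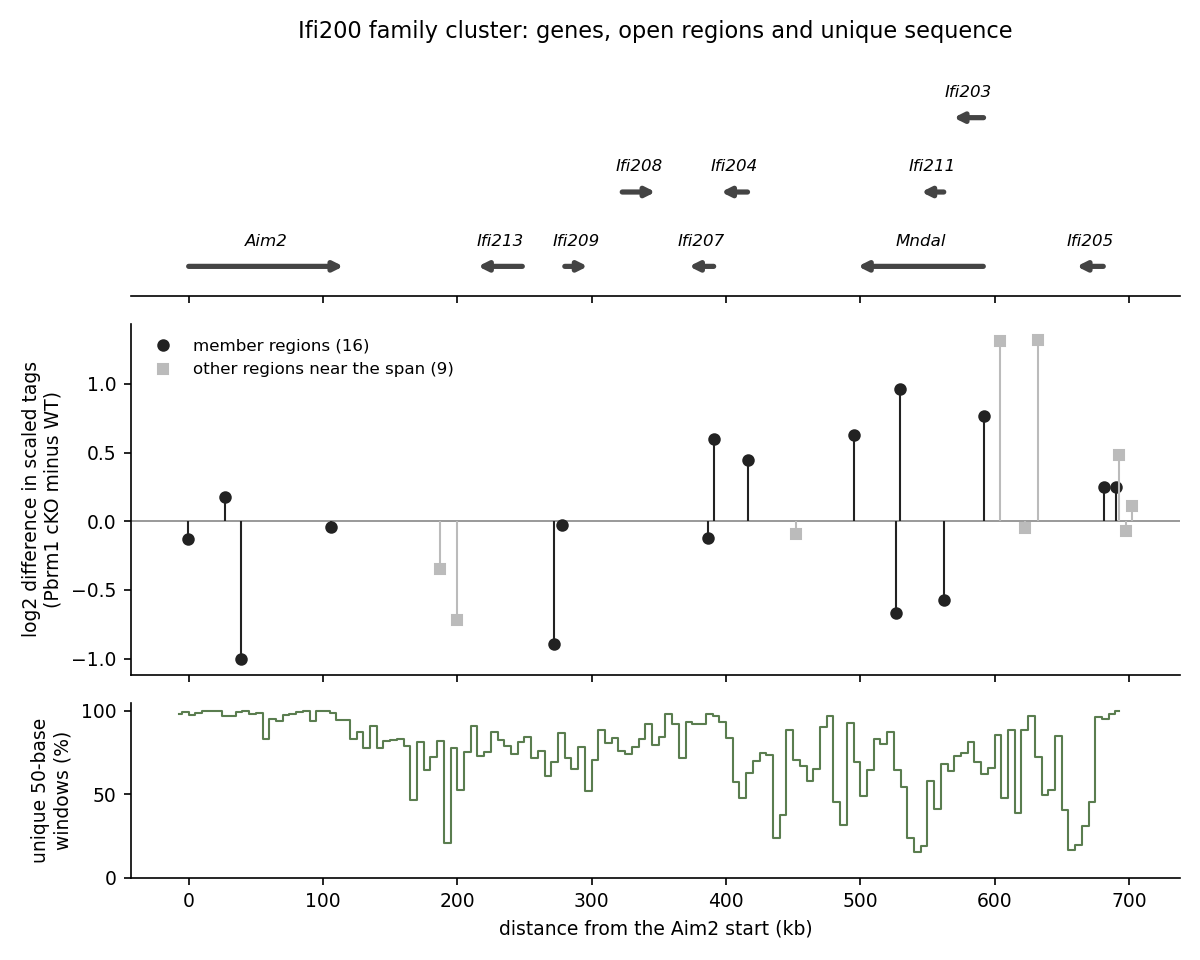
Map of the cluster by distance from the Aim2 start (kb). Arrows show the 10 genes in their direction of transcription, points the log2 difference in depth-scaled tags (Pbrm1 cKO minus WT, 3 libraries each) at the 16 member regions and at 9 other regions near the span, and the lower line the share of 50-base windows that occur once in the genome. The Mndal and Ifi211 promoters, inside the body of Mndal, lie on opposite sides of 0, at 0.96 and -0.57.

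The promoters of the members share sequence that the choice of members did not use. RefSeq promoter sequences (GRCm38.p6, from 250 bases before to 50 bases after a start, 300 in all) were matched by symbol for 9 members, all but Ifi204. The interferon-stimulated response element, bound by IRF and STAT factors, was searched on both strands as GAAA, any 2 bases and GAAA. It was found in 7 of these 9 members (77.8%), while 3.44% of all 32851 promoters held it. These were Ifi213, Ifi208, Ifi207, Mndal, Ifi211, Ifi203 and Ifi205. For each motif a member counted if any of its sequences matched (11 sequences for the 9 members), whereas the share of all counts single promoters. Several of these promoters are close copies of each other, as given below, so the members are not separate cases. The gamma-activated site TTCNNNGAA was in none of the 9 and in 8.30% of all promoters. TATAAA was in Ifi213, Ifi209, Ifi208 and Ifi205, 44.4% of the members against 13.6% of all. GC content ran from 41.3% (Ifi209) to 49.3% (Aim2). The response element was also searched in the open promoter regions of the merged lists. Of the 9 such regions in the members' windows 6 held it (66.7%), the Ifi204 promoter among them, against 5.41% of all 21555 promoter regions. A match describes letters only and is no evidence of binding.

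The next 4 sequences show that response element at its place in a promoter that had no open region (Ifi208) and in a weakly open one (Ifi207). They also show it in the promoter ranked highest by the p of its peak in WT cells (Ifi211) and in a promoter at the middle of the range (Ifi205). Each is the 250 bases before the RefSeq start, written 5′ to 3′ with the element in capitals. They lie at chr1:173673415-173673664 (Ifi208, plus strand), chr1:173741810-173742059 (Ifi207, minus), chr1:173913047-173913296 (Ifi211, minus) and chr1:174031756-174032005 (Ifi205, minus).
Ifi208: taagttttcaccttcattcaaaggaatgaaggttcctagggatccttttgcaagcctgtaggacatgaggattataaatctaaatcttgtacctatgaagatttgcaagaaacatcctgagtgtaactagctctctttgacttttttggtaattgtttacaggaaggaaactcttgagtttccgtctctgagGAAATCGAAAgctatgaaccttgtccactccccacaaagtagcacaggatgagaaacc
Ifi207: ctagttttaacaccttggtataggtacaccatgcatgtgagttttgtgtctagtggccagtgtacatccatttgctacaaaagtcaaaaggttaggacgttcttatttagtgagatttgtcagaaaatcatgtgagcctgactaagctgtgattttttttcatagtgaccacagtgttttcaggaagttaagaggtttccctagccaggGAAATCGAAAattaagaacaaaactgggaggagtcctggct
Ifi211: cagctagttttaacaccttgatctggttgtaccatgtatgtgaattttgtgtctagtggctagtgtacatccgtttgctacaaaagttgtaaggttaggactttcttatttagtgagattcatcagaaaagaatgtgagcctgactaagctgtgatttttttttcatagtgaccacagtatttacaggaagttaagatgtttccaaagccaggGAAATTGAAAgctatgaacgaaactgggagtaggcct
Ifi205: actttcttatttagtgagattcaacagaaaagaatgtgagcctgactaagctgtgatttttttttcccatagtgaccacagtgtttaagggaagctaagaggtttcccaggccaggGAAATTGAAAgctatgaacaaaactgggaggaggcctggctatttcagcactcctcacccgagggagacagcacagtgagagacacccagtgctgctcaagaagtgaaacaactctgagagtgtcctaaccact
The element began 58 bases before the start in Ifi208, 41 in Ifi207, 37 in Ifi211 and 134 in Ifi205. Ifi205 held a further match on the other strand (TTTCACTTTC), after the start and so beyond the printed bases. Aligned promoters of Ifi211 and Ifi205 were 94.0% identical over 201 bases, and those of Ifi207 and Ifi211 88.4% identical over 294. The closest pair of all was Ifi213 and Ifi208, with 3 mismatches in 285 aligned bases (98.9% identity).

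The Mndal and Ifi203 promoters were the other close pair, with 97.6% identity over 289 aligned bases. Below, capitals mark each base inside the aligned stretch that differs from its partner or has none, while bases beyond the ends of the alignment stay in lower case. The sequences lie at chr1:173880188-173880437 for Mndal and chr1:173942493-173942742 for Ifi203, both on the minus strand. In both, the response element (GAAATCGAAA) stands unchanged, 36 bases before the start of Mndal and 35 before that of Ifi203.
Mndal: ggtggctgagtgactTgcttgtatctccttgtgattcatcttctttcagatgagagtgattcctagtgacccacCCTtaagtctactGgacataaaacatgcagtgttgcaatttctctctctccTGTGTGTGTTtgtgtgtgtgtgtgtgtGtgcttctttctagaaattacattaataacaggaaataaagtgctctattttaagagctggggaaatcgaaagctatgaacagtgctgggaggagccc
Ifi203: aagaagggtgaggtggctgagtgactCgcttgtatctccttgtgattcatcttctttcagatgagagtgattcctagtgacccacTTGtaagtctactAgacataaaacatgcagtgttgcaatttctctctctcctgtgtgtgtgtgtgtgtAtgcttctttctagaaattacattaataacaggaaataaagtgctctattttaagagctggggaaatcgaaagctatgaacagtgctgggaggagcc

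Such copies limit what a peak list can say. Across the windows of the members, 75.7% of 50-base stretches occurred once in the genome, against 89.7% in the 1 Mb before and 88.4% in the 1 Mb after. The share was lowest around Ifi211 (42.8%), Ifi205 (56.9%) and Mndal (62.5%) and highest around Aim2 (96.9%). Of the 16 member regions, 8 had a near-identical copy elsewhere (at least 90% identity over at least 80% of the length). The open region at the Ifi204 promoter (chr1:173766519-173767794) and that at the Ifi211 promoter (chr1:173912518-173913768) were such copies, 97.4% identical over 1259 bases. About 69.2% of the 50-base windows of the Ifi204 region and 68.6% of those of the Ifi211 region were unique. How reads with several equal placements were handled is not spelled out in the sources used here. Apart from a reproducibility threshold, the study's methods give the settings of its ATAC-seq pipeline as default, without naming the setting for such reads.

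In each library every region was ranked by the strongest −log10 p over it, and the rank score is log2 of 66679 over that rank, so that 1 unit is a halving of the rank number. Tags are the read ends piled over a peak's summit, recovered from its fold enrichment and p. Scaled tags are tags divided by a size factor of each library, which ran from 0.625 in WT library 3, the shallowest, to 1.23 in Pbrm1 cKO library 1. In each comparison n = 3 libraries per genotype, and errors are SD unless named as a standard error (SE).

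Ifi204 and Ifi211 had the most open promoters of the cluster, and their order by mean level reversed between genotypes. In bulk libraries, fewer open cells and less opening in each cell cannot be told apart. Ifi204 encodes a nuclear and cytosolic DNA-binding protein related to human IFI16. Its promoter held rank 1006, 229 and 3112 in WT libraries 1, 2 and 3 and rank 42, 183 and 278 in Pbrm1 cKO libraries 1, 2 and 3. The rank score was 6.22 ± 1.89 in WT and 9.02 ± 1.43 in Pbrm1 cKO, a difference of 2.80 (SE 1.14), and the libraries of the genotypes overlapped, since WT library 2 ranked it above Pbrm1 cKO library 3. The tags over its summit were 120, 123 and 60 in WT and 194, 159 and 153 in Pbrm1 cKO. Scaled for depth, these were 108 ± 13.1 and 148 ± 9.56, a 1.36-fold higher level in Pbrm1 cKO with no overlap between libraries. Ranked by fold enrichment in place of p, the difference in rank score was only 0.17.

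The Ifi211 promoter went the other way. It held rank 115, 44 and 2116 in WT and rank 4193, 2466 and 6600 in Pbrm1 cKO, and every WT library ranked it above every Pbrm1 cKO library. The rank score was 8.24 ± 2.91 in WT and 4.03 ± 0.71 in Pbrm1 cKO, a difference of -4.21 (SE 1.02). Only 3 of the 66679 regions had a larger absolute difference, and 24 had a larger one than Ifi204. The tags were 169, 163 and 72 in WT and 115, 117 and 95 in Pbrm1 cKO, or 143 ± 24.3 and 95.8 ± 11.6 after scaling, a 1.49-fold higher level in WT. The rank scale stretches differences among the strongest regions, so the same difference was -4.21 in rank score and -0.57 in log2 scaled tags, and it was -2.49 with ranks by fold enrichment. At both copies the size of the difference thus depends on the measure. Even so, the scaled tags of the genotypes did not overlap, the lowest in WT being 115 and the highest in Pbrm1 cKO 109.

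The ratio of the tags at these copies within a library is free of that library's depth. The Ifi211 promoter had 1.41, 1.33 and 1.20 times the tags of the Ifi204 promoter in the WT libraries and 0.593, 0.736 and 0.621 times in the Pbrm1 cKO libraries. The means were 1.31 ± 0.105 and 0.650 ± 0.0758, without overlap between the genotypes. Their sum moved little. Scaled for depth, the tags of both promoters together were 258, 284 and 211 in WT and 250, 256 and 224 in Pbrm1 cKO, that is 251 ± 36.7 and 243 ± 17.2, a 0.970-fold level with overlapping libraries.

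**Figure D2:**
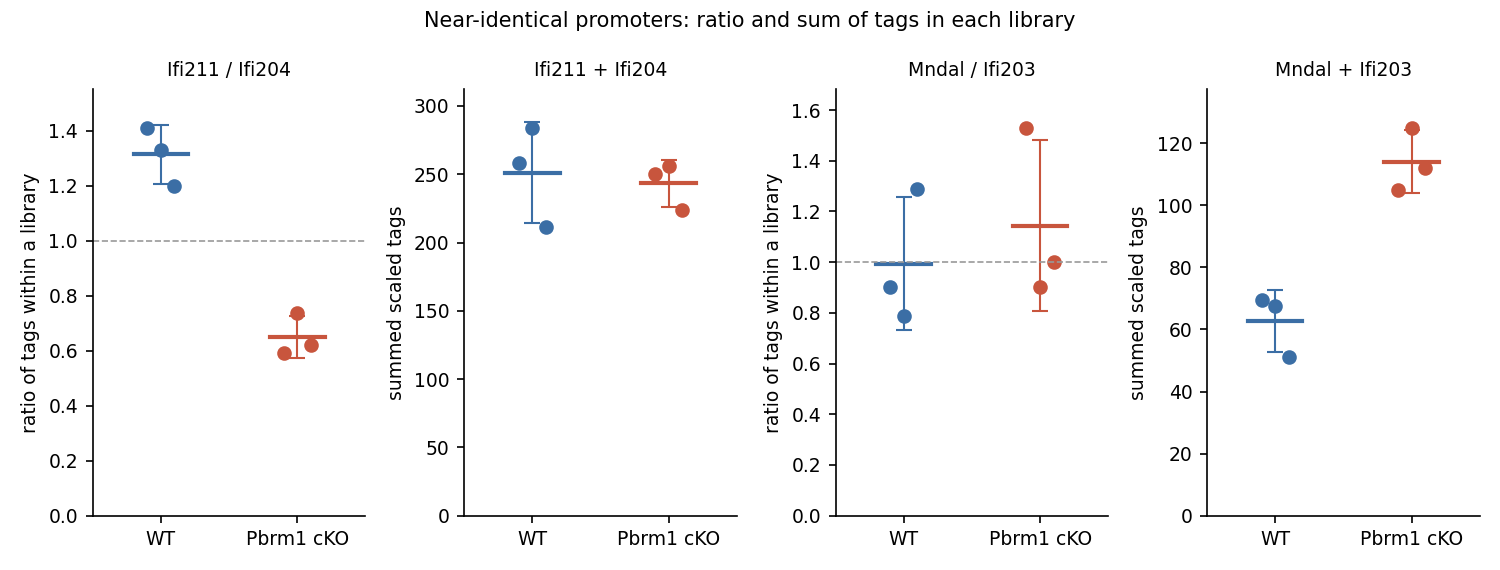
Ratio of tags within each library and sum of depth-scaled tags for the Ifi211 and Ifi204 promoters (left panels) and for the Mndal and Ifi203 promoters (right panels). Points are libraries, bars the mean and SD of 3, and the dashed line a ratio of 1. The Ifi211 to Ifi204 ratio lies above 1 in every WT library and below 1 in every Pbrm1 cKO library while the sum overlaps, and the Mndal and Ifi203 sum is higher in Pbrm1 cKO while the ratio overlaps.

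Mndal and Ifi203, which encode nuclear proteins of the family, showed the opposite arrangement. The open region at the Mndal promoter (chr1:173880112-173880706) held rank 19528, 26090 and 24464 in WT and 6609, 8525 and 8433 in Pbrm1 cKO. Its rank score was 1.52 ± 0.22 in WT and 3.10 ± 0.21 in Pbrm1 cKO, a difference of 1.57 (SE 0.33), without overlap. The tags were 37, 30 and 18 in WT and 78, 64 and 62 in Pbrm1 cKO, or 30.5 ± 2.19 and 59.5 ± 3.63 after scaling, a 1.95-fold higher level in Pbrm1 cKO.

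The region shared by the Ifi203 start and a further start of Mndal (chr1:173942387-173943000) held rank 17670, 17152 and 37050 in WT and 15006, 5508 and 9237 in Pbrm1 cKO. The rank score was 1.57 ± 0.63 and 2.87 ± 0.72, a difference of 1.29 (SE 0.41). The tags were 41, 38 and 14 in WT and 51, 71 and 62 in Pbrm1 cKO, 1.69-fold higher in Pbrm1 cKO after scaling. The libraries of the genotypes did not overlap, but Pbrm1 cKO library 1 stood close to the stronger WT libraries, at 41.3 scaled tags against 37.7. The ratio of Mndal to Ifi203 tags was 0.902, 0.789 and 1.29 in WT and 1.53, 0.901 and 1.00 in Pbrm1 cKO, with overlap, while their summed scaled tags were 62.8 ± 10.0 and 114 ± 10.5, 1.81-fold higher in Pbrm1 cKO. Both regions are near-identical copies (95.0% identity), so reads of one may have been counted at the other, and the sum is given for that reason. The sum leaves out a further partial copy, beside the pseudogene Ifi203-ps (chr1:173802728-173803309). That region matched the Mndal promoter at 97.2% identity over 422 bases, 72.5% of its length. It had 45.8 ± 8.49 scaled tags in WT and 43.2 ± 10.0 in Pbrm1 cKO, with overlap.

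**Figure D3:**
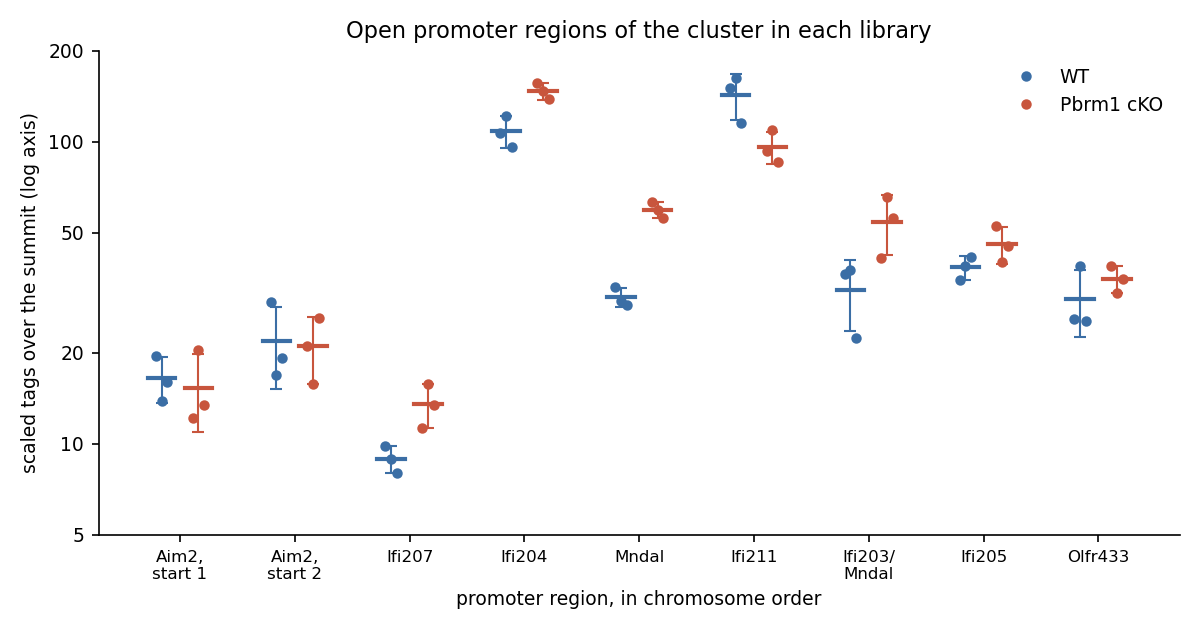
Depth-scaled tags over the summit of the 9 open promoter regions in the members' windows, on a log axis. Points are single libraries (WT blue, Pbrm1 cKO red), horizontal bars means and vertical bars SD (n = 3). Ifi204, Mndal, Ifi203 and Ifi207 are higher in every Pbrm1 cKO library, Ifi211 is lower in every one, and Ifi205, Olfr433 and both Aim2 regions overlap.

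Ifi205, Ifi207 and Aim2 have no near-identical copy of their open promoters, and all of the 50-base windows in those regions were unique (100%). Ifi205, a nuclear family member, held rank 16598, 15291 and 13094 in WT and 9280, 15002 and 12842 in Pbrm1 cKO at its promoter (chr1:174031637-174032449). Its rank score was 2.16 ± 0.17 and 2.46 ± 0.35, a difference of 0.30 (SE 0.34) with overlapping libraries. Its tags were 39, 39 and 26 in WT and 65, 43 and 50 in Pbrm1 cKO, 1.20-fold higher after scaling. The Ifi207 promoter (chr1:173741714-173742067) was the weakest of the cluster and was listed as reproducible in Pbrm1 cKO alone. It had 11, 9 and 5 tags in WT and 14, 17 and 15 in Pbrm1 cKO, and its ranks ran from 61327 to 63332 in WT and from 45327 to 58356 in Pbrm1 cKO. After scaling it was 1.52-fold higher in Pbrm1 cKO, at 13.6 ± 2.21 against 8.92 ± 0.902, without overlap.

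Aim2 had a weak open region near each of 2 annotated starts, and neither differed between genotypes beyond the spread of the libraries. They lay 610 and 969 bases from those starts. Neither is at the RefSeq promoter of Aim2 searched for motifs above (chr1:173420354-173420653), which overlapped no region of the merged lists. The upstream open region (chr1:173349854-173350269) had 22, 14 and 10 tags in WT and 15, 22 and 15 in Pbrm1 cKO. The other (chr1:173456457-173456649) had 33, 17 and 12 tags in WT and 26, 17 and 29 in Pbrm1 cKO. The differences in rank score were -0.06 (SE 0.27) and -0.05 (SE 0.36). An intronic region of Aim2 (chr1:173389888-173390525) did separate the genotypes, with 25, 21 and 12 tags in WT and 14, 13 and 9 in Pbrm1 cKO. It was 1.98-fold higher in WT after scaling, at 20.8 ± 1.54 against 10.5 ± 2.10. Another intronic region of Aim2 (chr1:173377553-173377787) did not, with a rank score difference of 0.26 (SE 0.28).

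Ifi209, Ifi208 and Ifi213 had no open promoter region. Ifi208 and Ifi213, whose promoters are nearly the same sequence, had no region of the merged lists within 10 kb of their bodies. In the relaxed lists of single libraries, Ifi208 had no entry in any of the 6 libraries, and Ifi213 had from 0 to 3 with 5 tags at most. In these windows 82.5% and 80.3% of the 50-base stretches were unique, against 75.1% around Ifi204 and 42.8% around Ifi211. An absent entry lies below the threshold of a list and is not proof of closed chromatin. Upstream of Ifi209, one intergenic region (chr1:173622260-173622931) was higher in WT, with 24, 25 and 14 tags against 14, 14 and 14 in Pbrm1 cKO, or 22.9 ± 1.75 and 12.3 ± 0.862 scaled. Its near-identical copy beside Ifi214 (93.8% identity) had 17, 16 and 8 tags in WT and 14, 8 and 9 in Pbrm1 cKO. Scaled, these were 14.6 ± 1.61 and 8.96 ± 2.09, 1.63-fold higher in WT without overlap between the genotypes. A second intergenic region, 2136 bases from the Ifi209 start, had 23, 20 and 16 tags in WT and 31, 26 and 18 in Pbrm1 cKO, with a rank score difference of 0.04 (SE 0.33).

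The remaining member regions were weak. An intronic region of Mndal (chr1:173877302-173877578), listed in WT alone and with unique sequence in 33.3% of its windows, had 20, 19 and 9 tags in WT and 13, 17 and 8 in Pbrm1 cKO. The rank scores of the genotypes did not overlap there (difference -0.39), but the scaled tags did. An intergenic region next to the pseudogene Gm38050 (chr1:173846256-173846896), listed in Pbrm1 cKO alone, had 12, 15 and 15 tags in WT and 37, 28 and 20 in Pbrm1 cKO, with a difference of 0.64 (SE 0.35) and overlap. An intronic region of Ifi207 (difference -0.17) and the promoter of the olfactory receptor gene Olfr433 beside Ifi205 (0.10) overlapped as well.

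Ordered by rank score in WT cells, the open promoters ran from Ifi211 and Ifi204 through Ifi205 (2.16 ± 0.17), Ifi203 (1.57 ± 0.63), Mndal (1.52 ± 0.22), Olfr433 (1.38 ± 0.49) and the Aim2 regions (1.17 ± 0.62 and 0.69 ± 0.30) to Ifi207 (0.10 ± 0.02). Ifi204 stood above Ifi205, and Ifi205 above Ifi203, in every library, whereas the neighbours from Ifi203 to the upstream Aim2 region overlapped with one another. In Pbrm1 cKO cells the order was Ifi204, Ifi211, Mndal, Ifi203, Ifi205 (2.46 ± 0.35), Olfr433, Aim2 and Ifi207 (0.40 ± 0.19). There Ifi204 stood above Ifi211 and Ifi211 above Mndal without overlap, Mndal overlapped with Ifi203 and Ifi203 with Ifi205, and Ifi205 stood above Olfr433 without overlap. Mndal and Ifi203 came before Ifi205 there and after it in WT.

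Over all 16 member regions the median rank score difference was 0.07, against 0.00 over all regions, and the median absolute difference 0.35 against 0.26. The absolute difference was over 1 in 4 members (25.0%), namely the Ifi204, Ifi211, Mndal and Ifi203 promoters, and in 2.93% of all regions. No member passed the limma test across all regions at an adjusted p of 0.05, in which 26 regions were higher in Pbrm1 cKO (0.0390%) and 19 were lower (0.0285%). The libraries of the genotypes did not overlap in rank at 3 members with the higher value in Pbrm1 cKO and at 4 with the lower, where 10.6% and 10.9% of all regions did so. With scaled tags these counts were 4 and 3, where the background was 9.79% and 10.7%. By rank and in either direction, libraries did not overlap at 30.0% of the regions within 1 Mb on either side. The share was 24.2% on chromosome 1 and 21.5% over all regions. Nothing can be read from these shares, since the cluster was chosen on the same values. The regions were found mostly in both genotypes, 13 of 16 being in both lists of reproducible peaks (81.2%, against 69.2% of all regions), and all 16 had an entry in each of the 6 libraries. Promoters made up 9 of the 16 (56.2%, against 32.3% of all).

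**Figure D4:**
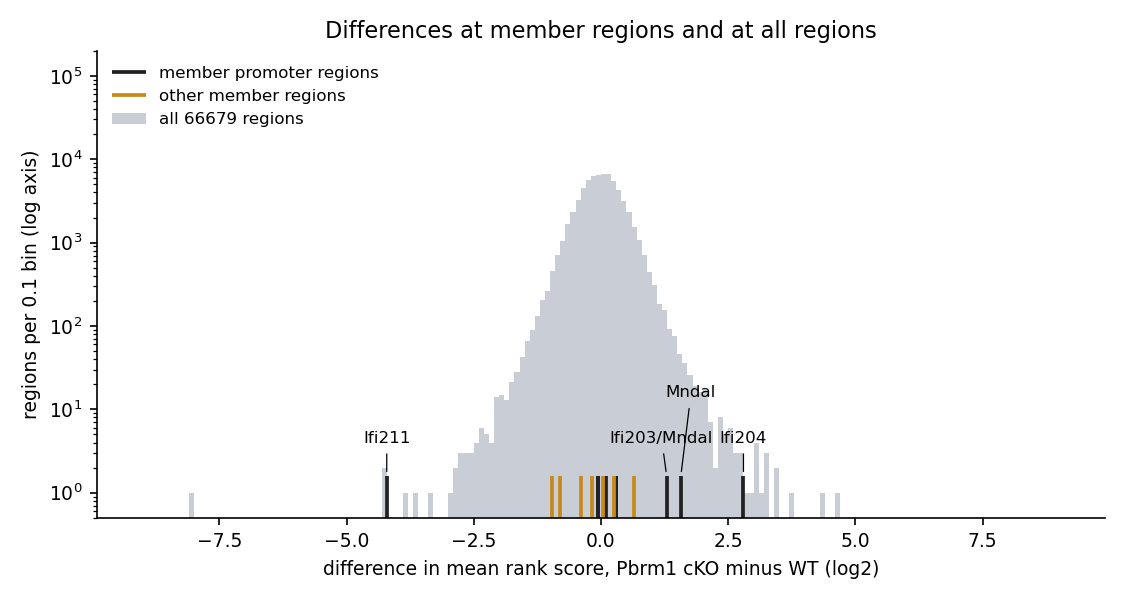
Difference in mean rank score (Pbrm1 cKO minus WT, log2 scale) over all 66679 regions as grey bars on a log axis, with the 16 member regions as ticks. The Ifi211 promoter lies at -4.21 and the Ifi204 promoter at 2.80, in the thin ends of the distribution, while most other members lie near 0.

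Of 10 regions near the windows but outside them, 2 had an absolute rank score difference over 1, and the other 8 lay between -0.40 and 0.45. An intergenic region 2.26 kb beyond the Ifi203 window (chr1:173954933-173955393) had 27, 31 and 21 tags in WT and 92, 68 and 89 in Pbrm1 cKO, 2.46-fold higher after scaling and without overlap (rank score difference 2.54). Ifi202b, a family member that lacks the pyrin domain and antagonizes AIM2, lay inside the span but was not among the members. Its promoter (chr1:173982528-173983205), 18.8 kb from the nearest window and a copy of the region beside Gm38050 (97.3% identity), had 15, 14 and 9 tags in WT and 44, 38 and 37 in Pbrm1 cKO, 2.50-fold higher after scaling (rank score difference 1.38). The other protein-coding genes inside the span, Cadm3, Ifi206 and Ifi214, had no open promoter region. On one side the span was flanked by Mptx2 and Ackr1, which had none either, and on the other by Olfr433 and Olfr432. The Olfr432 promoter scored 1.25 ± 0.16 in WT and 1.05 ± 0.14 in Pbrm1 cKO.

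Weaker openings were sought in the relaxed lists, in which each library kept about 300000 entries. The windows of the members held 42, 55 and 65 distinct intervals in WT libraries 1, 2 and 3 and 43, 47 and 43 in the Pbrm1 cKO libraries. Merged over libraries these were 95 intervals, of which 20 occurred in all 6 libraries and 40 in a single one. None was present in all 3 WT libraries and absent from all 3 Pbrm1 cKO libraries. The converse held for 2 intervals. One was inside Ifi207 (chr1:173733238-173733549), with 10, 11 and 8 tags in the Pbrm1 cKO libraries. The other stood beside the Ifi203 promoter (chr1:173943082-173943355), with 11, 13 and 15 tags. Neither overlapped a region of the merged lists. The share of such intervals over the whole relaxed lists was not counted, so nothing can be read from these counts. The lists also differed in cut-off, the lowest −log10 p running from 2.00 in Pbrm1 cKO library 3 to 3.25 in Pbrm1 cKO library 1.

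Genes of the interferon pathway outside the cluster were compared in the same fit. Their list was drawn up with earlier results of these data known, which limits what its p-values can show. Of 44 listed names, 42 were in the annotation, and 32 genes had an open promoter, with 44 regions. Among these regions 0 were higher and 0 lower in Pbrm1 cKO by limma with Benjamini-Hochberg adjustment over all 66679 regions, and 6 had an unadjusted p under 0.05 (13.6%, against 12.4% of all promoter regions and 15.9% of all regions). With normal scores of the ranks 1 region, at Gsdmd, was called, where 2.33% of all regions were. The median difference was -0.15, against -0.04 over all promoter regions. Of the listed regions 15 were higher and 29 lower, and of all promoter regions 9917 were higher and 11638 lower. The largest absolute difference was at Gsdmd, the pore-forming effector of inflammasomes, which was lower in every Pbrm1 cKO library (difference -1.24, SE 0.33, limma adjusted p = 0.106). Tyk2, a kinase of the type I interferon receptor, had a difference of 1.15 (SE 0.48, limma adjusted p = 0.258), and Tmem173, the adaptor STING, one of -0.85 (SE 0.25, limma adjusted p = 0.124). The promoters of the inflammasome partners of AIM2, Pycard and Casp1, had no open region, nor did those of Il1b and Nlrp3. Neither did those of the interferon-induced genes Isg15, Ifit1, Mx1, Oasl2, Rsad2 and Ifi44.

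Over the 6 libraries, the rank scores most like those of the Ifi204 promoter, outside the span and 1 Mb on either side, were at the promoters of Mrps33 (root mean square difference 0.71), Bag1 (0.99), Rpgrip1l (1.03), Kbtbd7 (1.08) and Crnde (1.10). At Mrps33, a gene of a mitochondrial ribosomal protein, the scores were 6.42, 6.96 and 4.25 in WT and 9.98, 9.46 and 7.77 in Pbrm1 cKO. WT library 3 was the lowest of the 6 at Mrps33 and at Ifi204.

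The cells' identity was checked at marker promoters. All 5 smooth muscle markers had an open promoter, with a summed rank score of 6.08 to 7.56 in WT and 5.69 to 7.10 in Pbrm1 cKO libraries. So did 4 of 4 endothelial markers (3.85 to 5.81 in WT, 3.40 to 5.30 in Pbrm1 cKO) and 3 of 4 fibroblast markers, without Lum (2.45 to 3.82 and 3.06 to 4.17). Of 9 immune markers only Csf1r and Cd68 did, with none at Ptprc, Spi1, Adgre1, Cd3e, Cd79a, Itgam or Laptm5, and their summed rank score was 2.25 to 3.64 in WT and 2.29 to 2.65 in Pbrm1 cKO libraries. Of 7 epithelial markers only Foxj1, a factor of ciliated cells, did, with none at Epcam, Cdh1, Krt8, Krt18, Pax8 or Ovgp1. Its score of 3.58 to 4.13 in WT and 3.20 to 4.62 in Pbrm1 cKO libraries was above that of every single smooth muscle marker, the highest of which was 2.25 (Acta2). The part of such other cells in the results was not tested. The cause of the opposite values at the Ifi204 and Ifi211 copies was not tested.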

How the data were processed

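ATAC-seq libraries of primary oviductal smooth muscle cells (3 WT, 3 Pbrm1 cKO) were grouped and numbered by their labels. Per the study's methods, the authors used the ENCODE ATAC-seq pipeline 1.9.0 and MACS2, and the submitters' processing notes name cutadapt, Bowtie2 and GRCm38.p5. The authors deposited 1 relaxed list per library (p of 0.01, best 300000 entries) and 1 conservative list per genotype (IDR of 0.05) from pooled reads. Each deposited entry holds a fold enrichment (a ratio over local background), a −log10 p-value, in the relaxed lists a −log10 q-value, and a rescaled score. The files held no read counts, so total depth is unknown here and no count test was run.

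Both conservative lists were merged with bedtools 2.31.1 (bookended peaks kept apart) into 66679 regions. Regions were ranked per library, and rank scores fitted with limma 3.58.1 in R 4.3.3 (lmFit, eBayes with a trend), adjusted over all regions by Benjamini-Hochberg. The procedure was also run on simulated data with the same noise at all regions, and no result given here rests on that run. Tags at a summit follow from its fold and p; all 540 entries checked near the cluster gave whole numbers within 0.001 of −log10 p. Size factors are medians of log2 tag ratios over 58335 regions. Genes came from GENCODE M21, promoters lay within 1 kb of a start, and copies were sought in the GRCm38 genome. Promoters were aligned with Biopython 1.88. The members and lists were chosen with earlier results of these data known. All members, their best regions and promoters were named, with the other genes of the span, those next to it, the 3 largest interferon pathway differences and the 5 promoters most like Ifi204. Nothing in the labels ties replicates to separate animals, so p-values measure the spread between libraries. Alternatives were leaving out each library, ranks by fold, normal scores, complete entries, a replicate block, narrower and wider windows, regions without copies, stricter lists, promoters within 3 kb and, chosen after seeing the data, scaled tags and ratios of copies.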

Additional observations from a re-analysis of the deposited data

How the results depend on the processing

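The median member difference of 0.07 stayed between 0.03 and 0.26 under every alternative run, including 0.05 to 0.20 when a library was left out and 0.07 with a replicate block. Libraries of the genotypes did not overlap at 7 member regions (21.5% of all regions), at 7 to 10 without a library (30.0% to 34.4% of all regions), at 12 of 26 regions with 50 kb windows and at 2 of the 8 regions without a near-identical copy. Members in both reproducible lists numbered 13 of 16, 21 of 26 with 50 kb windows, 7 of 8 without copies and 8 of 14 in the upper 50% of each list. Calls over all regions were 26 higher and 19 lower, 4 and 0 with ranks by fold, 662 and 890 with normal scores, 14 and 6 with entries in all 6 libraries, 66 and 65 with the replicate block, and 2 to 5 and 0 to 15 without a library. Replicate numbers did not pair the libraries (correlations of deviations -0.00289, -0.0549 and 0.00906). Among interferon pathway promoters the count of 0 became 1 with normal scores, at Gsdmd. The Ifi204 difference of 2.80 was 1.90 to 3.78 without a library (lowest without WT library 3), 0.17 with ranks by fold and 0.45 in log2 scaled tags. The Ifi211 difference of -4.21 was -5.84 to -3.05 without a library, -2.49 with ranks by fold and -0.57 in log2 scaled tags. The cause was not tested. Of the single-region values, 147 moved by less than the spread of replicates or kept their side of the threshold and 10 moved further. Tags as low as 5 limit the weak regions.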
